A study of Rattus norvegicus with 6 samples.

Results

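The genes described here are the matrix metalloproteinases Mmp2, Mmp3, Mmp9, Mmp11 and Mmp14, the related protease Adamts1 and the tissue inhibitors of metalloproteinases Timp1, Timp2 and Timp3. Every probe set that the array annotation gives to a single one of these symbols was taken, which gave 16 of 31042 probe sets for all 9 genes. Timp3 had 4 probe sets, Timp2, Mmp2, Mmp9 and Mmp14 had several as well, and the other genes had 1 each. Transcripts were measured on 1 array per sample in rat pituitaries kept as organ cultures, 3 of them controls and 3 exposed to GnRH (gonadotropin-releasing hormone) at 10 nM. The labels used here name no strain, sex or age of the animals and no length of treatment. They do not say either whether the numbered samples of a group were separate cultures, and the descriptions of all 3 GnRH samples end in the number 1 where their titles run from 1 to 3, so each p-value reflects a spread between samples that could be technical.

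Matrix metalloproteinases are zinc-dependent enzymes that cut collagens, laminins, proteoglycans and the membrane-bound precursors of growth factors. They are made as inactive proenzymes, and TIMP proteins block the active enzymes by entering the catalytic cleft. In gonadotropes, the pituitary cells that carry the GnRH receptor, metalloproteinases are known for shedding growth factor precursors after GnRH, which links the receptor to the EGF receptor.

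Across the whole array, control 3 resembled the GnRH arrays (Pearson correlation over probe sets 0.988 to 0.991) more than controls 1 and 2 (0.983 and 0.986), which correlated at 0.994 with each other. The same division appeared in Xist, the noncoding RNA of the inactive X chromosome: on probe set 1374684_at controls 1 and 2 were at 3.91 and 3.66 (log2), control 3 at 9.77 and the GnRH arrays between 9.16 and 9.73. Values against control 3 and fits without it are therefore given below. Fits without control 3 set controls 1 and 2, low in Xist, against GnRH arrays that were all high in it. In these fits a difference that goes with the Xist level cannot be told apart from one that goes with GnRH. The fit of all 6 arrays shares this limit in part, since control 3 alone among the controls was high in Xist. The pituitary hormone genes Gh1 and Prl had log2 values from 13.83 to 14.25 on all 6 arrays. Gnrhr, the GnRH receptor, was higher with GnRH by 1.04 on probe set 1369118_a_at and by 1.12 on 1387465_a_at (log2, limma adjusted p = 0.0129 and 0.0215), and neither passed without control 2 (0.0649 and 0.0940) or GnRH 2 (0.0612 and 0.0658), nor 1387465_a_at without control 1 (0.0789) or GnRH 3 (0.0545).

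With GnRH, 1 of the 16 probe sets passed the test: Timp3 fell by 0.50 ± 0.09 (SE, log2), or 1.42-fold, on probe set 1375138_at (limma, Benjamini-Hochberg adjusted p = 0.0494). The largest difference in the other direction was in Timp2, at 0.67 ± 0.13 on probe set 1386940_at, which did not pass (limma adjusted p = 0.0613). None of the 8 probe sets of Mmp genes passed. Over all probe sets 0.464% passed by the same rule, 0.422% as higher and 0.0419% as lower. The median log2 fold change was -0.12 over the 16 probe sets and -0.025 over all probe sets. Of the 16, 11 lay below 0, as did 17806 of all 31042. Without control 3, 4 of the 16 passed, 3 lower and 1 higher, where 7.44% of all probe sets did (4.95% higher and 2.49% lower). The groups did not overlap in 6 of the 16, with 5 lower and 1 higher with GnRH. Of all probe sets, 16.7% did not overlap, 9.62% lower and 7.06% higher. At an unadjusted p under 0.05 there were 7 of 16, with 6 lower and 1 higher, against 12.3% of all probe sets (5.66% lower and 6.6% higher).

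**Figure D1:**
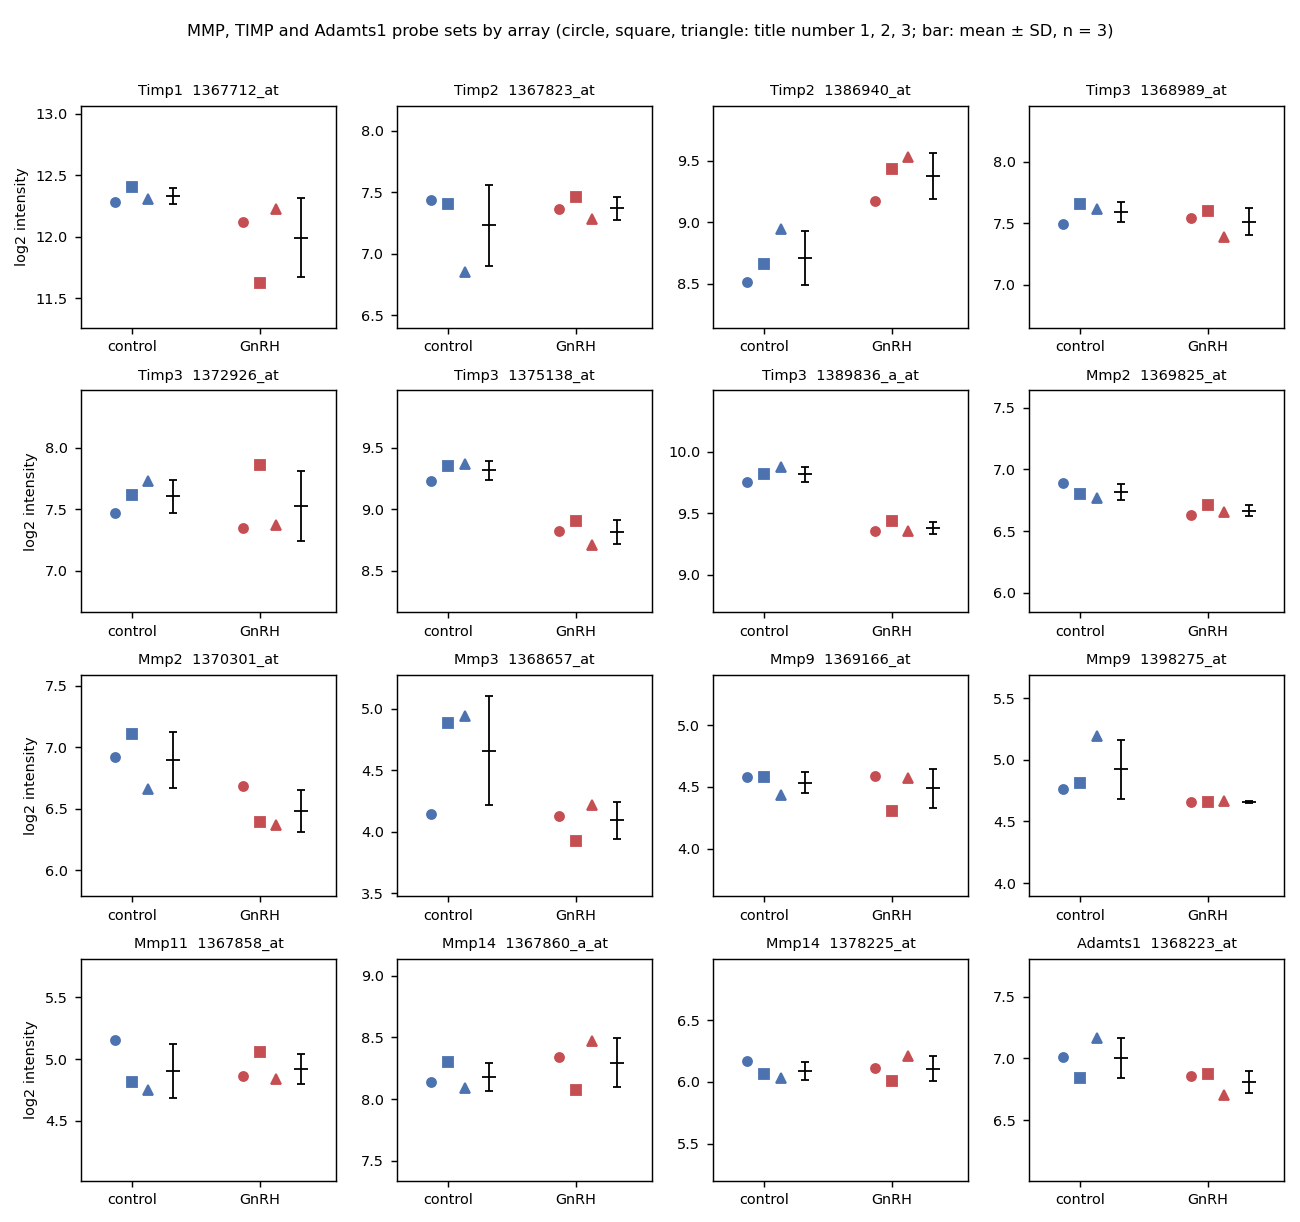
Log2 intensity on each array for the 16 probe sets, with controls in blue, GnRH in red and the bars giving the mean and SD of 3 arrays. The axis spans the same range in every panel, and the 2 Timp3 panels 1375138_at and 1389836_a_at show GnRH arrays below all controls with little spread in either group.

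The DNA before the start sites differs in kind between these genes. RefSeq's GRCr8 promoter table matched 6 of the 9 genes, and the 250 bases before the start site are shown for the TIMP genes, whose values lay on both sides of 0, and for Mmp3, the Mmp gene with the largest difference. Capitals mark matches on either strand to any of the motifs that follow. The AP-1 site, bound by Fos and Jun factors, was searched as TGAGTCA. The TATA box, which positions the start of transcription, was searched as TATAAA. The GC box, bound by Sp factors, was searched as GGGCGG. The cAMP response element, bound by CREB factors, was searched as TGACGTCA, and no match in the promoters of these genes overlapped another.
Timp3, chr7:19459559-19459808, minus strand: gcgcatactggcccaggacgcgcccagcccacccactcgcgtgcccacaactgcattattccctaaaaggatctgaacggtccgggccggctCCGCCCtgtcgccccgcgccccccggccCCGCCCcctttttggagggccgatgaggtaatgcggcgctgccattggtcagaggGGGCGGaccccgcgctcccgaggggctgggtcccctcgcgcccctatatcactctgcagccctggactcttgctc
Timp2, chr10:104089215-104089464, minus strand: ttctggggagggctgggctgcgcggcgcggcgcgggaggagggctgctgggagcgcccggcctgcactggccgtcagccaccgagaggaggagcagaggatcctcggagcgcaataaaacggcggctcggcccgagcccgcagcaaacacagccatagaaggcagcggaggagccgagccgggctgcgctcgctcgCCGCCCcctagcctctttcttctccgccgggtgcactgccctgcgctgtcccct
Timp1, chrX:3771123-3771372, minus strand: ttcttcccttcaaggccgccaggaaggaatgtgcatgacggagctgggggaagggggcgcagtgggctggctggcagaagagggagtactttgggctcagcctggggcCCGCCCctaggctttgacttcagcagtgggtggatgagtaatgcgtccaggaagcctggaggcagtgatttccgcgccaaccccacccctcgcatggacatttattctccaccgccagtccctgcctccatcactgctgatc
Mmp3, chr8:12925031-12925280, plus strand: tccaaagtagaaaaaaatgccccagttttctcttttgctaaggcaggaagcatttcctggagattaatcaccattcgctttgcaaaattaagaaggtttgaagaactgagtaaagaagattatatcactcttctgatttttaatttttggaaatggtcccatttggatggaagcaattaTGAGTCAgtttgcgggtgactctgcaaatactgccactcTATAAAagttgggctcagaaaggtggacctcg

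The Timp3 and Timp2 stretches were rich in G and C, at 69.6% and 72%, against a median of 51.2% over 33469 promoters, with Timp1 at 61.2% and Mmp3 at 38.8%. GC boxes were found 3 times in Timp3 and 1 time each in Timp2 and Timp1, and 30.5% of all promoters held at least 1. Mmp3 alone among these 4 held a TATA box, 32 bases before the start, and an AP-1 site, 71 bases before it. A TATA box match was in 12.9% of all promoters and an AP-1 match in 4.05%. No cAMP response element lay in the 4 stretches, and 1.59% of all promoters held a match. Of the genes not shown, Adamts1 held 1 TATA box and 2 GC boxes and Mmp11 held 3 GC boxes. These are matches of letters, and binding was not measured.

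Timp3 encodes the inhibitor that stays bound to the extracellular matrix and that also blocks ADAM and ADAMTS enzymes. On probe set 1375138_at the controls had log2 values of 9.23, 9.35 and 9.37 and the GnRH arrays 8.82, 8.91 and 8.71. All 3 GnRH arrays lay below all controls, and control 3 was the highest array. The mean was 9.32 ± 0.08 (SD, n = 3) in controls and 8.81 ± 0.10 with GnRH. On probe set 1389836_a_at the values were 9.75, 9.82 and 9.87 in controls against 9.35, 9.44 and 9.35 with GnRH. These groups did not overlap either, and the difference of -0.43 ± 0.08 (SE) missed the threshold (limma adjusted p = 0.0613), but passed with a pseudocount of 16 (0.0460) and with array weights (0.00536). Against control 3 alone, the array with the Xist level of the GnRH arrays, the GnRH mean was lower by a log2 difference of -0.56 on 1375138_at and -0.49 on 1389836_a_at. Without control 3 the differences were -0.47 and -0.41, and both passed (limma adjusted p = 0.0150 and 0.0197).

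The other Timp3 probe sets differed little. On 1368989_at the controls had 7.50, 7.65 and 7.62 and the GnRH arrays 7.54, 7.60 and 7.39, a difference of -0.077 with a 95% interval from -0.28 to 0.13. On 1372926_at the controls had 7.47, 7.62 and 7.73 and the GnRH arrays 7.35, 7.86 and 7.37, again a difference of -0.077, with an interval from -0.38 to 0.23. In both, the groups overlapped, and GnRH 2 was the highest array of 1372926_at. With the mean of all 4 probe sets Timp3 had a log2 fold change of -0.27 (limma adjusted p = 0.245). The call of 1375138_at was lost without control 1 (limma adjusted p = 0.0907), control 2 (0.187), GnRH 1 (0.166), GnRH 2 (0.164) or GnRH 3 (0.163). It was also lost with median centring (0.0660), quantile normalization (0.0540), cyclic loess (0.0581), an intensity trend (0.0616) or a pseudocount (0.0514), while the difference stayed between -0.57 and -0.45 in all of these fits of that probe set.

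Whether probe sets of a gene changed unequally was tested on their difference within each array, for 9597 pairs of probe sets of single genes. The pairs came from all genes with several probe sets, and 10 of them belonged to the genes described here. By limma, 0 of the 10 and 0% of all pairs passed, while 5 of the 10 and 10.3% of all pairs had an unadjusted p under 0.05. These 5 were the Timp2 pair and the 4 Timp3 pairs that follow, which share their probe sets and are not 4 separate results. For Timp3, 1375138_at changed by -0.43 ± 0.10 (SE) relative to 1368989_at (limma adjusted p = 0.218) and by -0.43 ± 0.13 relative to 1372926_at (0.300). Probe set 1389836_a_at changed by -0.36 relative to each of the same 2 (limma adjusted p = 0.297 and 0.413). The within-array differences did not overlap between groups in 5 of the 10 pairs, these 4 and that of 1389836_a_at with 1375138_at (0.068, limma adjusted p = 0.879), against 15% of all pairs. All of these are Timp3 pairs with shared probe sets, so neither count is of independent pairs. The stretch of the transcript that each probe set reads was not analysed here.

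**Figure D2:**
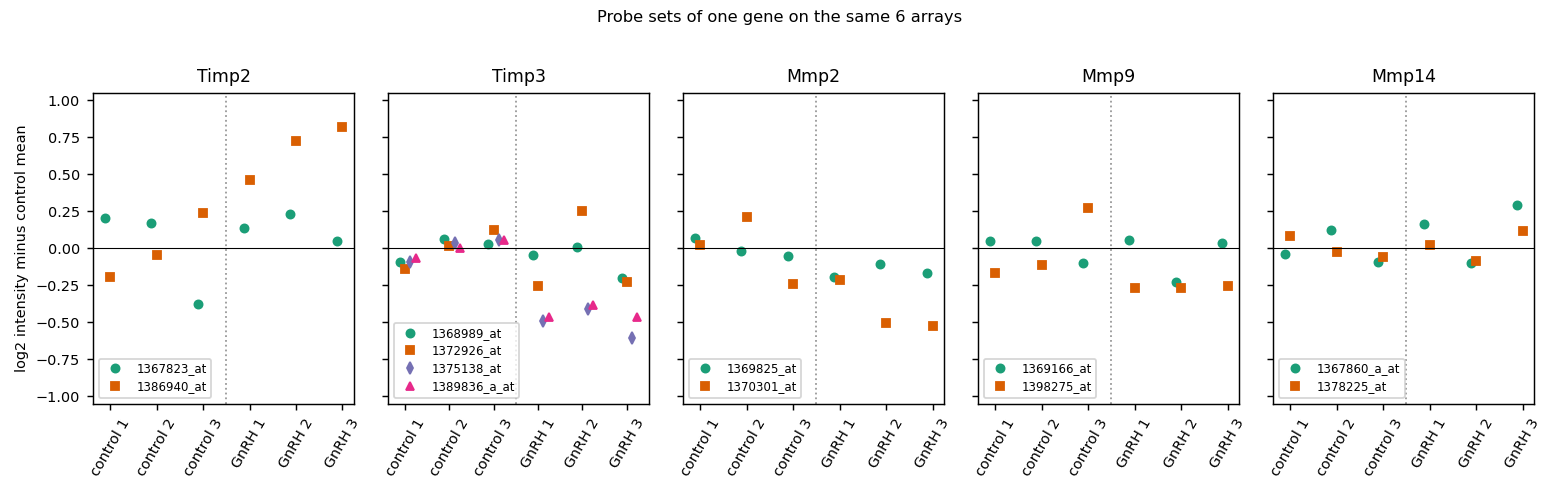
Log2 intensity of each probe set minus its own control mean, on each of the 6 arrays, for the genes with several probe sets. In Timp3 the probe sets 1375138_at and 1389836_a_at lie below 0 on all GnRH arrays, while 1368989_at and 1372926_at stay near it or scatter.

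Timp2 encodes the inhibitor that also holds pro-MMP2 on MMP14 at the cell surface, where pro-MMP2 is activated. On probe set 1386940_at the controls had log2 values of 8.52, 8.66 and 8.95 and the GnRH arrays 9.17, 9.43 and 9.53. All GnRH arrays lay above all controls, and control 3 was the control nearest to them. The difference was 0.67, or 1.59-fold, with a 95% interval from 0.38 to 0.95. Against control 3 alone it was 0.43. Without control 3 it was 0.79 and passed (limma adjusted p = 0.00354), and it also passed with cyclic loess (0.0484), robust variances (0.0455) and array weights (0.00357). Without any single other array it did not pass (limma adjusted p from 0.0873 without GnRH 1 to 0.279 without GnRH 2).

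On the other Timp2 probe set, 1367823_at, the values were 7.44, 7.40 and 6.85 in controls and 7.37, 7.46 and 7.28 with GnRH. The groups overlapped, with control 3 below all other arrays, and the difference of 0.14 had an interval from -0.18 to 0.46. Without control 3 this difference was -0.050. The changes of both probe sets differed by 0.53 ± 0.23 (SE; limma adjusted p = 0.461), and by 0.84 without control 3, where that pair passed (0.0126). In that fit 7.44% of all probe sets passed, and the share of all pairs is not given here. With the mean of both probe sets Timp2 had a log2 fold change of 0.40 ± 0.08 (limma adjusted p = 0.0755).

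Timp1, an X-linked gene whose inhibitor binds pro-MMP9 as well as active enzymes, had 12.28, 12.41 and 12.31 in controls and 12.12, 11.63 and 12.23 with GnRH. All GnRH arrays lay below all controls, but GnRH 2 stood far below the others, and control 3, with its high Xist, lay between controls 1 and 2. The difference of -0.34 ± 0.14 (SE) did not pass (limma adjusted p = 0.374). Without GnRH 2 it was -0.16.

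The gelatinase gene Mmp2, whose enzyme cuts denatured collagen and basement membrane collagen, was lower with GnRH on both probe sets without passing. On 1370301_at the controls had 6.92, 7.11 and 6.66 and the GnRH arrays 6.68, 6.39 and 6.37, a difference of -0.41 ± 0.13 (SE; limma adjusted p = 0.242). Control 3 lay just below GnRH 1, so the groups overlapped, and against control 3 alone the difference was -0.18. Without control 3 it was -0.53 and passed (limma adjusted p = 0.0204). On 1369825_at the values were 6.89, 6.80 and 6.77 against 6.63, 6.71 and 6.65, which did not overlap and differed by -0.15 ± 0.08 (limma adjusted p = 0.495).

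Mmp3 encodes stromelysin-1, which activates other proenzymes, among them pro-MMP9. It had 4.15, 4.89 and 4.94 in controls and 4.13, 3.93 and 4.22 with GnRH. Control 1 lay among the GnRH arrays and the other controls above them, so the difference of -0.57 ± 0.19 (SE), numerically the lowest of the 16, did not pass (limma adjusted p = 0.264). Without control 1 it was -0.82 and passed (limma adjusted p = 0.0333), and without control 3 it was -0.42 (0.166). The probe set was dim, among the lowest 25% of the array by mean level, and with a pseudocount of 16 the difference was -0.33.

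Mmp9, the other gelatinase, was among the lowest 25% of the array on both probe sets. On 1398275_at the controls had 4.76, 4.81 and 5.20 and the GnRH arrays 4.65, 4.66 and 4.67. The groups did not overlap, control 3 was the highest array, and the difference of -0.26 (limma adjusted p = 0.399) was -0.13 without control 3. On 1369166_at the values were 4.58, 4.58 and 4.44 against 4.59, 4.31 and 4.57, which overlapped, with a difference of -0.046. There were no detection calls in the table, so it cannot be said whether such dim probe sets measured a transcript.

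None of the probe sets of Mmp14, Mmp11 and Adamts1 passed the test. Mmp14, the membrane-anchored enzyme that activates pro-MMP2, had control values of 8.14, 8.30 and 8.09 on 1367860_a_at, against 8.34, 8.08 and 8.47 in the GnRH arrays. The groups overlapped, and the difference was 0.12 with an interval from -0.14 to 0.37. It was 0.031 without GnRH 3, 0.23 without GnRH 2, 0.18 without control 2 and 0.074 without control 3. Its other probe set, 1378225_at, gave 0.020 with an interval from -0.18 to 0.22. Mmp11, stromelysin-3, which is activated inside the cell by furin, had 5.15, 4.81 and 4.75 against 4.86, 5.06 and 4.84, also among the lowest 25% of the array. Its difference was 0.015, with an interval from -0.25 to 0.28. Adamts1, a secreted protease of the proteoglycans versican and aggrecan, had 7.01, 6.84 and 7.16 against 6.86, 6.87 and 6.70. Control 2 lay among the GnRH arrays, and the difference was -0.20 with an interval from -0.43 to 0.035, and -0.12 without control 3.

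**Figure D3:**
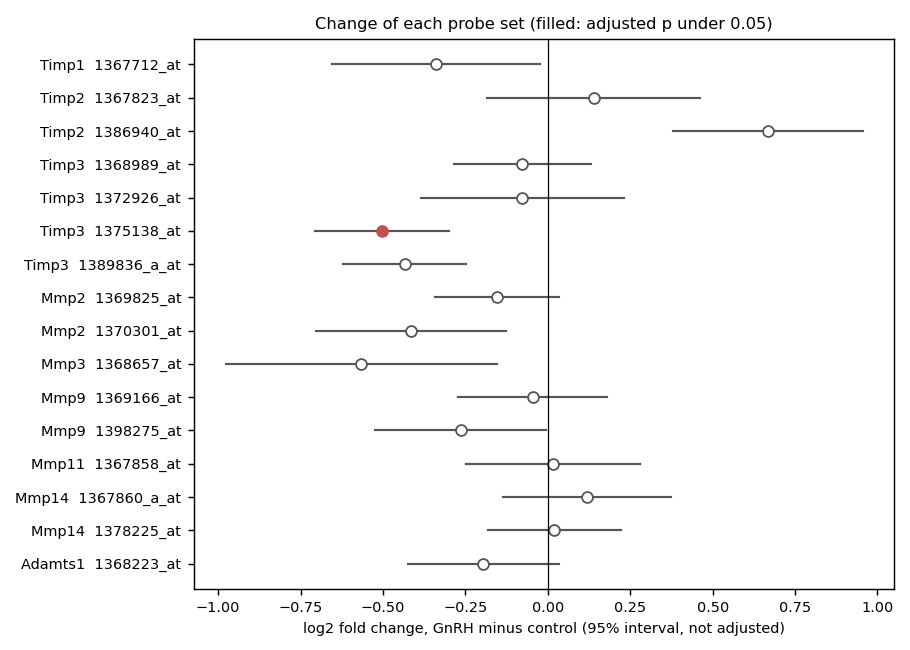
Log2 fold change, GnRH minus control, of each probe set, with its 95% interval from limma before adjustment. Timp3 1375138_at, filled, is the 1 probe set past the threshold, and Timp2 1386940_at lies on the other side of 0.

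**Figure D4:**
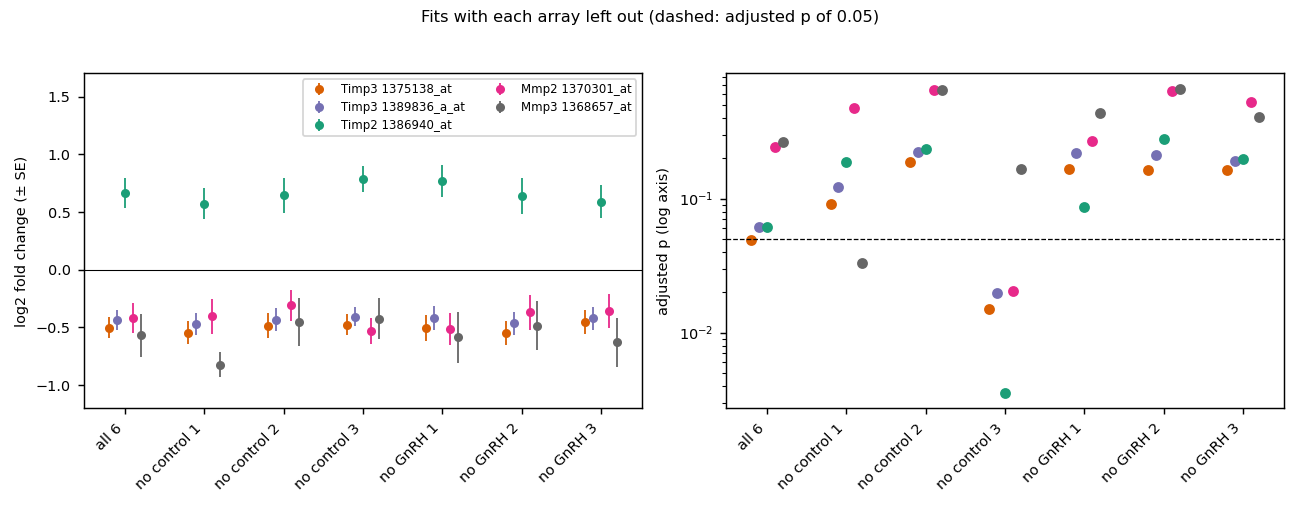
Log2 fold change with its SE (left) and limma adjusted p on a log axis (right) for 5 probe sets, with all 6 arrays and with each array left out. The differences keep their sign in all 7 fits, and 4 of the 5 fall below the dashed line of 0.05 without control 3.

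Other members of the protease families had no probe set past the threshold. Of the other Mmp genes and Timp4, 13 of 18 were measured. By limma 0 of 17 probe sets passed, where 0.464% of all probe sets did. At an unadjusted p under 0.05, 2 were lower and 0 higher, against 5.66% and 6.6% of all probe sets. Mmp13, a collagenase, came closest, with 4.58, 4.56 and 4.64 in controls and 4.17, 4.15 and 4.15 with GnRH, a difference of -0.43 ± 0.08 (SE; limma adjusted p = 0.0540). Without control 3 it passed (-0.41, limma adjusted p = 0.0160), as the 1 of the 17 that did, where 7.44% of all probe sets passed. It was among the dimmest 25% of the array. The epithelial protease Mmp7 differed by -0.22 and the membrane-type Mmp15 by 0.20, and neither passed. Of the ADAM and ADAMTS genes 20 of 29 were measured, and 0 of 32 probe sets passed by limma. At an unadjusted p under 0.05 there were 0 as well, against 12.3% of all probe sets. Adjusted without control 3, 0 passed too. Adam17, the sheddase of many membrane precursors and a target of TIMP3, differed by -0.22, while Adamts10 and Adam23 each had -0.20 on the probe set with the smallest p-value.

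Among activators, inhibitors and binding partners of these enzymes, 3 of 30 probe sets passed, all lower, for 22 of 25 genes measured. Of all probe sets 0.464% passed, 0.0419% as lower. At an unadjusted p under 0.05 the list had 4 higher and 3 lower, against 6.6% and 5.66% of all probe sets. Plau, the urokinase that turns plasminogen into plasmin, an activator of Mmp proenzymes, fell by 0.85 on 1387675_at and by 0.75 on 1398287_at (limma adjusted p = 0.0144 and 0.0203). Lcn2, lipocalin 2, which binds MMP9 in a complex, fell by 0.78 (limma adjusted p = 0.0266). These calls were lost without control 2 (limma adjusted p = 0.0690, 0.0881 and 0.116 for 1387675_at, 1398287_at and Lcn2), GnRH 2 (0.0820, 0.126 and 0.163) or GnRH 3 (0.0545, 0.0693 and 0.0888), and for 1398287_at also without control 1 (0.0734). Furin, the proprotein convertase that activates MMP11 and MMP14, had 7.30, 7.59 and 7.45 against 8.04, 8.11 and 7.80. Its groups did not overlap, and the difference of 0.54 ± 0.11 (SE) did not pass (limma adjusted p = 0.0760). Without control 3 this list had 3 lower and 2 higher probe sets past the threshold. Of all probe sets, 2.49% passed as lower and 4.95% as higher in that fit. The 2 higher ones were for Furin (0.54, limma adjusted p = 0.0238) and for Pcsk6 (0.96, 0.00317), another proprotein convertase. With all arrays Pcsk6 differed by 0.697 and did not pass (limma adjusted p = 0.213). For Pcsk6, control 3 had 9.79 and lay among the GnRH arrays (9.71, 10.25 and 9.93), so the groups overlapped.

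Genes of the matrix that these enzymes cut had values above 0 more often than below, without a call. All 30 listed genes were measured on 47 probe sets, of which 0 passed by limma. At an unadjusted p under 0.05 there were 13 higher and 2 lower, against 6.6% and 5.66% of all probe sets. The median log2 fold change was 0.11, against -0.025 over all probe sets, and 31 of the 47 lay above 0, where 42.6% of all probe sets did. Tnc, the matrix glycoprotein tenascin C, had 5.47, 5.91 and 6.20 in controls and 6.48, 7.28 and 6.78 with GnRH (difference 0.99, limma adjusted p = 0.0852). Col4a1, a chain of basement membrane collagen, differed by 0.73 on 1373245_at and 0.50 on 1372439_at, and the laminin chain Lamb1 by 0.63. In these 3 genes the groups did not overlap. Over the list 12 probe sets were higher and 2 lower without overlap, against 7.06% and 9.62% of all probe sets. The 2 lower at an unadjusted p under 0.05 were for Dcn (-0.63, limma adjusted p = 0.194) and Nid2 (-0.36, 0.390). Without control 3 the list had 4 probe sets higher and 4 lower past the threshold, where 4.95% and 2.49% of all probe sets passed, and its median was 0.046 (-0.038 over all probe sets). The 4 higher were for Tnc, Col4a1, Lamb1 and Col5a1, and the 4 lower for Dcn, Nid2, Col6a1 and Lama2.

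The array pattern of Timp3 1375138_at was most like those of Slco6b1, Lhfpl2, Plau, Ramac and Oprk1, with Pearson correlations of 0.993, 0.991, 0.987, 0.986 and 0.982 over the 6 arrays. Oprk1 is the kappa opioid receptor and Ramac a partner of the mRNA cap methyltransferase. Such values describe a pattern set mainly by the 2 groups, and 76 of 31041 other probe sets had a correlation of at least 0.95. Among the Timp3 probe sets 1389836_a_at had 0.990, 1368989_at 0.661 and 1372926_at 0.416.

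In whole pituitary tissue, fewer cells of a type and less RNA per cell cannot be told apart. The summed linear intensity of 9 folliculostellate and stem-like markers was 1964.7 to 2282.6 in controls and 1466.2 to 1787.4 with GnRH, with 0 of 17 probe sets past the threshold. For 7 posterior lobe markers it was 1088.5 to 1370.8 and 760.9 to 1017.4, with 0 of 10 past it. Both lists hold Gfap, a glial filament, which had log2 values of 7.92, 8.97 and 8.94 against 7.69, 6.47 and 5.76 (limma adjusted p = 0.0835). Of the 10 posterior lobe probe sets 4 lay above 0 and 6 below. Nefl was higher (0.45 and 0.40), and Avp (-0.57) and Oxt (-0.43) were lower. Of the 17 folliculostellate probe sets 7 lay above 0 and 10 below, where 42.6% of all probe sets lay above 0. Sums without Gfap were not compared, so the ranges by themselves do not show a fall of the other markers. The sums overlapped for 11 fibroblast and pericyte markers (1408.7 to 1896.2 and 1410.1 to 1717.5), 9 endothelial markers (1060.9 to 1160.3 and 1150.5 to 1300.0) and 11 macrophage and leukocyte markers (1422.5 to 1755.9 and 1483.2 to 1765.5). Within the fibroblast list Dcn (-0.63), Lum (-0.54) and Pdgfra (-0.51) lay lower and Col1a2 higher (0.61 and 0.41), none past the threshold. Without control 3, 3 fibroblast probe sets (Dcn, Pdgfra and Thy1), 2 folliculostellate ones (Gfap and Cxcl12) and 1 of the posterior lobe list (Gfap) passed as lower, where 2.49% of all probe sets did. Of these, Thy1 (1369652_at) and Cxcl12 (1369633_at) had control 3 below all GnRH arrays, at 7.44 against 7.79 to 8.02 and 6.18 against 6.57 to 6.65. With all arrays they differed by -0.10 and -0.18 (limma adjusted p = 0.864 and 0.759). Pdgfra had 7.03 in control 3 and 7.04, 7.04 and 6.79 with GnRH. For 6 gonadotrope markers the sums overlapped (13001.5 to 16612.5 and 14737 to 18252.4), and 4 of 9 probe sets passed as higher, where 0.422% of all did: both of Gnrhr, Dmp1 (1.48, limma adjusted p = 0.00586) and Nr5a1, a gonadotrope transcription factor, on 1393286_at (0.54, 0.0471). The hormone subunit genes did not pass, with Lhb (0.34) and Cga (0.18) above 0 and both probe sets of Fshb below it (-0.30 and -0.36). Nr5a1 on 1369859_at (0.39) did not pass either. The Nr5a1 call was lost when any 1 array other than control 3 was left out (limma adjusted p from 0.0950 to 0.182). Without control 3 the gonadotrope list had 5 of 9 higher, where 4.95% of all probe sets passed as higher. The sums of 7 markers of other hormone cells overlapped too (36399 to 38516.2 and 38285.6 to 38906.1). Of their 9 probe sets 0 passed by limma, with 3 higher at an unadjusted p under 0.05, against 6.6% of all probe sets. Without control 3, 3 passed as higher and 1 as lower (Tshb, -0.84), against 4.95% and 2.49% of all probe sets. For Tshb, control 3 had 9.71, below all GnRH arrays (9.86 to 10.06). No marker was at 0, since the table holds no zero. The part of these cell types in the Timp and Mmp values was not tested.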

How the data were processed

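Each of 6 samples gave 1 array with biotin-labelled cRNA, per the labels' protocols. The deposited values are intensities on a linear scale, from RMA per the submitters' processing notes, for 31042 probe sets, with no detection calls. RMA equalises arrays and combines probes, so a shift common to all transcripts would not be seen. Depth does not apply; the number of arrays limits the precision.

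Samples were grouped by title. The array annotation gave 1 symbol to 20826 probe sets, several to 436 and none to 9780. Values were turned to log2 without a pseudocount and fitted with limma 3.58.1 (lmFit, eBayes) in R 4.3.3, without covariates or filters. Benjamini-Hochberg adjustment ran over all probe sets at a threshold of 0.05. On simulated data for all 31042 probe sets, 15 of 50 changes of 0.5, 50 of 50 of 1.0 and 50 of 50 of 1.5 (log2) were recovered.

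The genes and lists were chosen with earlier results of these data known. Named beside them were the 3 genes of each pathway list with the smallest p-values and the 5 genes most correlated with Timp3 1375138_at. Pathway genes past the threshold with all arrays or without control 3 were named too, as were the 2 lower matrix genes. Other genes with values (Xist, Gnrhr, hormone genes and cell type markers) were named as checks, the markers after their values were seen. The comparison of probe sets of 1 gene and the counts of each list without control 3 were added after the data were seen. Alternatives covered normalization, a filter on the dimmest 25% of probe sets, variance models, array weights, a pseudocount of 16, a replicate block and each array left out.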

Additional observations from a re-analysis of the deposited data

How the results depend on the processing

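Of 31042 probe sets 144 passed the threshold, and this number was 90 with quantile normalization, 93 with cyclic loess, 74 with a pseudocount of 16, 3020 with array weights and 20 to 2309 with an array left out. Of the 16 probe sets of the Mmp, Timp and Adamts1 genes, 1 passed; the number was 0 with median centring, 0 with quantile normalization, 0 with an intensity trend, 2 with robust variances, 5 with array weights and 0 to 4 with an array left out. The 5 with array weights, which gave control 3 a weight of 0.298, were both brighter Timp3 probe sets, Timp2 1386940_at, Mmp2 1370301_at and Mmp3, where 9.73% of all probe sets passed. Of 10 pairs of probe sets, 0 passed, with 2 under array weights and 0 to 1 with an array left out. The share of all pairs that passed in those fits is not given here, so these pair counts have nothing to be set against. The difference of Mmp9 1369166_at turned to 0.0058 and that of the Timp3 pair 1372926_at and 1368989_at to -0.00037 with cyclic loess. With an array left out, differences crossed 0 for Timp2 1367823_at (-0.050 to 0.24), Timp3 1372926_at (-0.24 to 0.013), Mmp9 1369166_at (-0.096 to 0.045), Mmp11 (-0.062 to 0.14), Mmp14 1378225_at (-0.030 to 0.071) and that Timp3 pair (-0.12 to 0.11). The cause was not tested.

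With the replicate number as a block, 215 probe sets passed, and of the 16 Timp2 1386940_at passed (limma adjusted p = 0.0218) and Timp3 1375138_at did not (0.0599). Deviations of equally numbered samples correlated at 0.159, -0.049 and 0.156, so the numbers were not taken as pairs. The 4 probe sets of Mmp3, Mmp9 and Mmp11 lay among the lowest 25% of the array, and the table gives no background signal to set them against.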
